A study of Mus musculus with 6 samples.

Results

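The transcripts examined here are 10 genes of the elastic fibre, out of 52636 genes in a table of estimated counts from bulk RNA sequencing of mouse thoracic aorta. They were listed by gene symbol for their place in the fibre: elastin (Eln), the fibrillins Fbn1 and Fbn2, the microfibril-associated genes Mfap2, Mfap4 and Mfap5, the short fibulins Fbln5, Efemp1 (fibulin-3) and Efemp2 (fibulin-4), and the interface protein Emilin1. All 10 were found in the table, and 9 had counts high enough for a test. The study had 4 libraries of wild-type C57BL/6J mice without treatment (WT) and 2 of Tgfbr1/2iSMCKO mice (KO), all taken at 12 weeks of age. KO mice carried loxP-flanked Tgfbr1 and Tgfbr2, an mT/mG reporter and Myh11-CreERT2; tamoxifen (2 mg each day, 5 injections) was given to them in week 11. Cre is driven by the smooth muscle gene Myh11, so the receptors of other aortic cells are left intact. WT mice had no loxP sites, no Cre, no reporter and no tamoxifen, so the effects of these cannot be told apart from receptor loss.

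Elastic fibres give the aortic wall its recoil. Smooth muscle cells and, in the adventitia, fibroblasts secrete tropoelastin, which is cross-linked by lysyl oxidases onto a scaffold of fibrillin microfibrils, with fibulins and EMILINs at the interface. Fibrillin microfibrils also hold latent TGF-β through its binding proteins. The comparison asks whether the transcripts of this assembly change within days of losing TGF-β receptors in smooth muscle cells.

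Total counts ran from 19650983 to 28860598 per library. The targeted genes are no check of genotype here, because whole-gene counts include exons that Cre leaves in place and cells without Cre: log2 fold changes were 0.20 for Tgfbr1 (DESeq2 adjusted p-value 0.63) and -0.09 for Tgfbr2 (0.838). The KO libraries stood apart from each other and from WT in what else they held. Mitochondrial transcripts took 11.7% of the counts in KO-2 against 3.38% in KO-1 and 2.62% to 4.44% in WT. The 6 cardiac muscle markers summed to 19102 normalised counts in KO-1 against 824.4 to 1673 in WT, and the 4 brown adipocyte markers to 10186 in KO-2 against 349.8 to 507.5 in WT. Smooth muscle markers, led by Myh11 and Acta2 as defining genes of the labelled tissue, summed to 838705 in KO-1 and 998245 in KO-2 against 883248 to 1042571 in WT. By DESeq2 and by edgeR 0 of 8 passed, and 4 had an unadjusted DESeq2 p-value under 0.05. Of these, Myh11 had a log2 fold change of 0.36 (adjusted p-value 0.199), and the other 3 had values below 0, Tagln -0.41, Cnn1 -0.38 and Smtn -0.30. In these 3 both KO libraries were below every WT library (16.4% of all genes tested), and in Myh11 and Des both were above (17.9%). With a trend on GC content and length taken out of each library, the values of Tagln, Cnn1 and Smtn were -0.33, -0.34 and -0.02.

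Levels per length were compared first, in TPM, the share of transcripts computed from the counts and the exon length of each gene. Elastin led in WT aorta, with 2058.2, 2725.7, 1726.5 and 1914.0 TPM in the 4 libraries, which placed it at rank 40 of all genes. Mfap4 followed at 887.1 ± 46.9 TPM (SD, n = 4) and rank 103. Fbln5, the fibulin that tethers elastin to cells, had 384.6 ± 56.0 TPM (SD, n = 4). These 3 genes were separated from each other and from the next member without overlap of their WT ranges. Mfap5 (213.8 ± 63.0 TPM, SD, n = 4), Emilin1 (189.8 ± 14.4 TPM) and Fbn1 (163.0 ± 18.8 TPM) formed the middle of the order, in which each overlapped its neighbour. Efemp2 had 76.4 ± 16.3 TPM (SD, n = 4). Mfap2 (39.4 ± 3.23 TPM) and Efemp1 (37.0 ± 8.23 TPM) stood below it and overlapped each other. The order was the same with the longest transcript as the length of each gene, but levels changed. By that length the WT mean of Eln was 3548.9 TPM against 2106.1, and that of Mfap4 was 772.5 against 887.1.

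Fbn2, which encodes the fibrillin known mainly from development, was near absence. It had 0 counts in each WT library and in KO-1 and 3 counts in KO-2. A count of 0 allows up to 3 counts, so no difference was detectable at this depth and no fold change is given. Of the fibrillin transcripts in adult aorta, nearly all were therefore Fbn1.

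**Figure D1:**
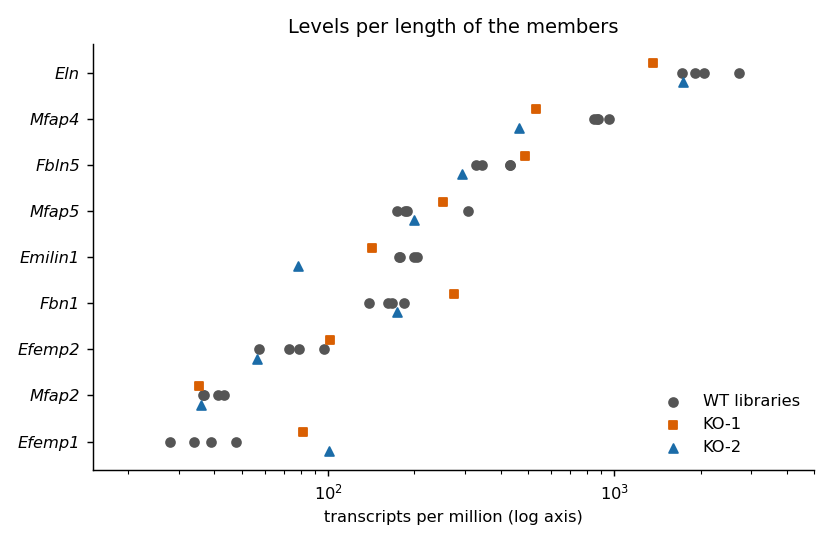
Levels of 9 elastic fibre genes in TPM on a log axis, 1 point per library (grey circles WT, orange squares KO-1, blue triangles KO-2; Fbn2 is left out). Eln, Mfap4 and Fbln5 lead in WT, and the KO points of Mfap4, Emilin1 and, narrowly, Mfap2 lie below, and those of Efemp1 above, every WT point.

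Elastic fibre transcripts did not move as one group. In KO against WT, Mfap4 and Emilin1 were lower and Efemp1 was higher, and the other 6 members tested did not pass. The test was DESeq2's Wald test over all genes with Benjamini-Hochberg adjustment, passed at an adjusted p-value under 0.05. Of the 9 members tested, 1 passed as higher and 2 as lower (33.3%), against 10.4% of the 17070 genes tested, 5.71% as higher and 4.69% as lower. Among genes whose mean was 200 normalised counts or more, as it was for all 9 members, 12.0% passed. By edgeR the same 3 members passed, against 6.18% of genes. Members were chosen with earlier results of these data known, so these shares do not test them as a group. Of the members only Efemp1, which was higher, both passed and exceeded a 2-fold change, against 5.64% of all tested genes (3.54% higher, 2.1% lower). The median log2 fold change of the 9 members was -0.03, beside 0.01 over all genes tested. KO and WT values did not overlap in 4 members (2 higher, 2 lower), against 34.3% of all genes tested (17.9% higher, 16.4% lower).

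**Figure D2:**
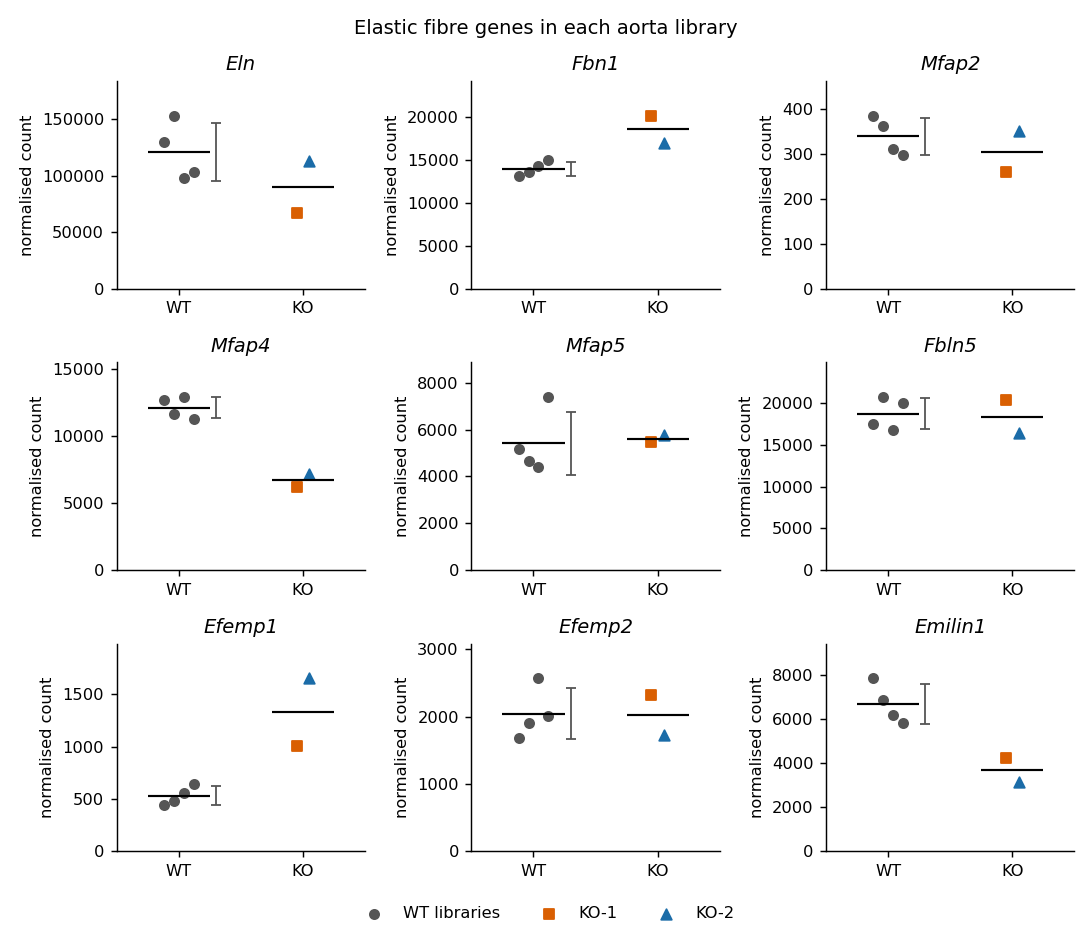
Normalised counts (counts divided by DESeq2 size factors) of 9 elastic fibre genes in each library. Horizontal lines are group means, bars beside the WT points are 1 SD (n = 4), and the 2 KO libraries have their own symbols. Mfap4 and Emilin1 are lower in both KO libraries than in any WT library, Efemp1 and Fbn1 are higher in both, and the KO libraries lie far apart for Eln.

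Elastin, the core protein of the fibre (Eln, ENSMUSG00000029675, GRCm38 chromosome 5, 134702593 to 134747323, minus strand), varied widely within both groups. WT-1 to WT-4 had 129500, 153244, 98221 and 103680 normalised counts, with 66939 in KO-1 and 113018 in KO-2. KO-1 was below every WT library, and KO-2 was inside their range. The WT libraries themselves had a coefficient of variation of 20.9%. The log2 fold change was -0.43 with a 95% interval from -0.92 to 0.06 and a DESeq2 adjusted p-value of 0.314. Without KO-2 it was -0.84 (DESeq2 adjusted p-value 0.0276), and without KO-1 it was -0.10 (0.862). A lower elastin transcript level was thus measured in 1 of 2 KO libraries.

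Fbn1 encodes fibrillin-1, the main structural protein of microfibrils (chromosome 2, 125300594 to 125507993, minus strand). It had 13078, 13639, 14225 and 14953 normalised counts in WT-1 to WT-4, 20132 in KO-1 and 17010 in KO-2. Both KO libraries were above every WT library, and the WT spread was the smallest of the members, with a coefficient of variation of 5.75%. The log2 fold change of 0.41 (95% interval 0.10 to 0.72) did not pass over all genes, with a DESeq2 adjusted p-value of 0.0731. It passed when a trend on GC content and length was taken out of each library (0.46, adjusted p-value 0.00423) and without KO-2 (0.54, adjusted p-value 0.0146). In TPM the separation was not kept, since KO-2 had 174.0 and WT-4 184.3. The opposite-strand gene Gm9913 shares 20.1% of the exon bases of Fbn1, and it had 11 to 27 counts per library against 11906 to 26532 for Fbn1.

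Mfap4 gave the smallest adjusted p-value of the members. It encodes a fibrinogen-domain glycoprotein that binds elastin, fibrillin and collagen, and lies on chromosome 11 (ENSMUSG00000042436, 61485431 to 61488900, plus strand). Its normalised counts, WT-1 first, ran 12656, 11615, 12897 and 11256 in WT, then 6208 in KO-1 and 7166 in KO-2. Both KO libraries were well below the lowest WT library and close to each other. The log2 fold change was -0.86 (standard error 0.16, DESeq2 adjusted p-value 3.56e-06, edgeR adjusted p-value 0.0121). Its log2 change from the WT mean was -0.96 in KO-1 and -0.76 in KO-2. The decrease passed in 14 of 15 alternative analyses, with log2 fold changes from -0.95 to -0.74; the exception was the test against a 2-fold change.

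The paired microfibril-associated glycoproteins MAGP-1 (Mfap2) and MAGP-2 (Mfap5), small proteins that decorate fibrillin, did not pass. Mfap5 had 4385 to 7389 normalised counts in WT, 5467 in KO-1 and 5765 in KO-2. The highest WT value was that of WT-4, and both KO values were within the WT range. Its log2 fold change was 0.05 with a 95% interval from -0.39 to 0.50 (DESeq2 adjusted p-value 0.927). Mfap2 had 298.6 to 385.5 in WT, 259.5 in KO-1 and 351.5 in KO-2, with a log2 fold change of -0.16 and an interval from -0.63 to 0.32 (DESeq2 adjusted p-value 0.781). Among the microfibril-associated genes listed, only Mfap4 passed, and for the MAGP genes the intervals leave room for modest shifts in either direction.

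The 3 short fibulins share a chain of calcium-binding EGF-like domains and a common C-terminal domain, and fibulin-4 and fibulin-5 are known to be required for elastic fibre assembly. Only Efemp1 passed. It lies on chromosome 11 (ENSMUSG00000020467, 28853204 to 28926743, plus strand) and had 443.8, 477.8, 556.2 and 646.3 normalised counts in WT-1 to WT-4, 1005 in KO-1 and 1651 in KO-2. Both KO libraries were above every WT library and differed from each other by more than the WT range. The log2 fold change was 1.32 (standard error 0.25, DESeq2 adjusted p-value 1.23e-05, edgeR adjusted p-value 0.0204). It was 0.92 in KO-1 and 1.64 in KO-2 relative to the WT mean. The increase passed in 14 of 15 alternative analyses, with values from 0.93 to 1.64, but without KO-2 it did not exceed 2-fold (0.93).

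Fbln5 and Efemp2, the fibulins tied most directly to elastin assembly, did not pass. Fbln5 had 16785 to 20768 normalised counts in WT, 20382 in KO-1 and 16393 in KO-2. The log2 fold change was -0.03 with a 95% interval from -0.38 to 0.31 (DESeq2 adjusted p-value 0.947). Efemp2 had 1681 to 2569 in WT, 2322 in KO-1 and 1725 in KO-2. Here it was -0.01 with an interval from -0.45 to 0.42 (DESeq2 adjusted p-value 0.983). For these genes KO-1 was higher than KO-2, and all values but the KO-2 value of Fbln5 were within the WT range.

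Because Efemp1 passed and the other short fibulins did not, the 250 bases before the first listed RefSeq start of each (GRCm38.p6) are shown, 5′ to 3′ on the strand of the gene. Capitals mark the letters TGANTCA, a loose form of the AP-1 site with any base at N, and CAGAC, the SMAD box. The search covered both strands, and these matches do not overlap each other. The TGANTCA match in Efemp1 has A at N and is a match to this loose form only.
Efemp1, chr11:28852955-28853204, plus strand: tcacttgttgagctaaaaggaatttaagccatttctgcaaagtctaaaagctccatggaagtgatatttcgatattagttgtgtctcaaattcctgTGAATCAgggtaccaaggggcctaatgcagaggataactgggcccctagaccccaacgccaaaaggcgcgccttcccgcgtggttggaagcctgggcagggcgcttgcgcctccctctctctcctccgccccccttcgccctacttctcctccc
Fbln5, chr12:101819120-101819369, minus strand: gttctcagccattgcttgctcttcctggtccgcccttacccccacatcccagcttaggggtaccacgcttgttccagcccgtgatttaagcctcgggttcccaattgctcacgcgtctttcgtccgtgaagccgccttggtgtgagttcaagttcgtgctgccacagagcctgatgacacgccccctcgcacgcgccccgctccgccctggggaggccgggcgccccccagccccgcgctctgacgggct
Efemp2, chr19:5473696-5473945, plus strand: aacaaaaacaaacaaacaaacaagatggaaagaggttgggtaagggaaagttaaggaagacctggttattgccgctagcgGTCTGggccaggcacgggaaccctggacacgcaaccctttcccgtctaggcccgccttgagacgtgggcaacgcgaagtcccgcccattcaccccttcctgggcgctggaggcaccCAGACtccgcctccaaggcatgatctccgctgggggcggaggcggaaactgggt

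The Efemp1 window holds 1 match to TGANTCA and 0 to CAGAC, the Efemp2 window 0 and 2, and the Fbln5 window 0 of each. Of 32851 promoter windows of the same length, 6.75% hold TGANTCA, 42.2% hold CAGAC at least once and 11.7% at least as often as Efemp2. Each of the 3 windows holds the GC box GGGCGG (1 match in Efemp1, 2 in Fbln5, 2 in Efemp2), as 32.7% of all windows do. RefSeq lists 1 further start for Fbln5, whose window holds CAGAC 2 times, and 2 further starts for Efemp2, whose windows hold it 0 times, so these counts depend on the start taken. Windows of 6 of the 10 members were read, and chromosome 18, which holds Fbn2, was left out of this reading. A match is a description of the letters only.

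Emilin1 fell. It encodes the interface glycoprotein between elastin and microfibrils, which is known to restrain the processing of pro-TGF-β (ENSMUSG00000029163, chromosome 5, 30913402 to 30921277, plus strand). In the same order Emilin1 had 7838, 6852, 6198 and 5816 normalised counts in WT, 4229 in KO-1 and 3127 in KO-2. The KO libraries were below every WT library, with KO-2 the lower of the pair. The log2 fold change was -0.86 (standard error 0.20, DESeq2 adjusted p-value 0.00049, edgeR adjusted p-value 0.0333). The size of the decrease depended on the setting. It was -0.65 without KO-2 (adjusted p-value 0.0369), -1.09 without KO-1 and -0.54 with the GC content and length trend taken out (adjusted p-value 0.0132), and it passed in 14 of 15 alternatives.

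**Figure D3:**
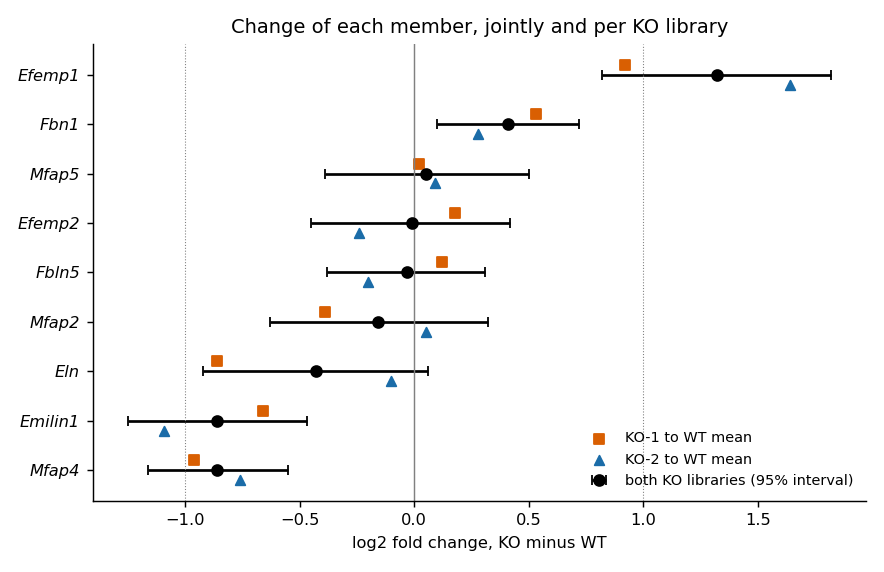
Log2 fold change (KO minus WT) of 9 elastic fibre genes. Black points and bars are the DESeq2 estimate from all 6 libraries with its 95% interval, squares and triangles are KO-1 and KO-2 alone against the WT mean, and dotted lines mark a 2-fold change. The intervals of Mfap4, Emilin1, Fbn1 and Efemp1 lie on one side of 0, and the KO libraries lie at -0.86 and -0.10 for Eln.

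The members differ in base composition. The longest transcript of Emilin1 is 61.1% GC, that of Eln 58.8%, that of Mfap4 53.6% and that of Efemp1 44.9%. With a trend on GC content and length removed per library, the log2 fold change was -0.54 for Emilin1, -0.74 for Mfap4 and 1.22 for Efemp1, and all 3 passed; that of Eln shrank to -0.16.

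Ratios within a library do not depend on scaling between libraries, so 5 pairs of members were compared this way. The log2 ratio of Efemp1 to Efemp2 counts ran from -2.21 to -1.64 in WT and was -1.21 in KO-1 and -0.06 in KO-2. Both KO libraries were above every WT library, and the mean difference was 1.31. The two-sided exact permutation test gave p = 0.133 (0.667 after Benjamini-Hochberg adjustment over the 5 pairs), which is the smallest p that 4 libraries against 2 allow. The ratios of Mfap4 to Eln (difference -0.40), Emilin1 to Eln (-0.41), Fbln5 to Eln (0.42) and Mfap5 to Mfap2 (0.24) overlapped between groups, with exact permutation p-values from 0.267 to 0.667. No shift of Mfap4 or Emilin1 relative to Eln could be shown with so few libraries, and the KO libraries disagreed: the ratio of Emilin1 to Eln was -3.98 in KO-1 and -5.18 in KO-2, against -4.48 to -3.99 in WT. The ratio of Fbn2 to Fbn1 could not be computed because Fbn2 had counts of 0.

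**Figure D4:**
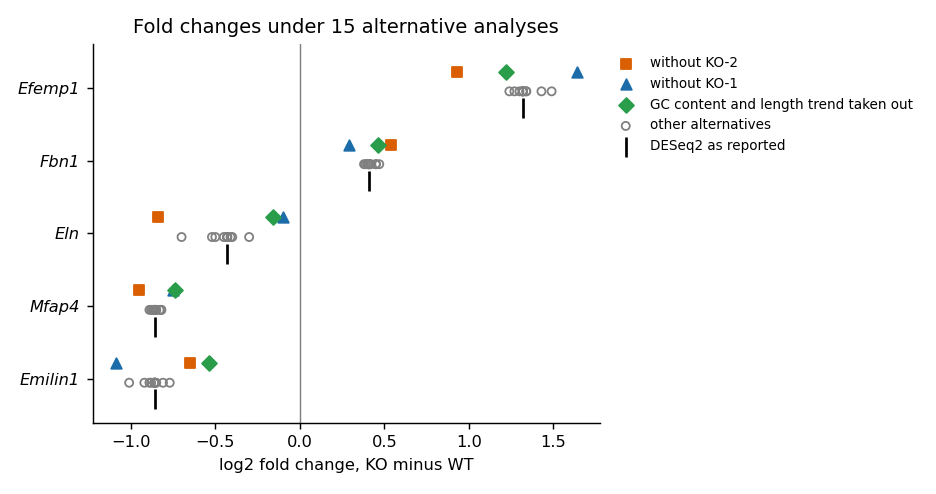
Log2 fold changes (KO minus WT) of 5 elastic fibre genes under 15 alternative analyses, with the DESeq2 value as a black bar. Squares leave out KO-2, triangles leave out KO-1, diamonds take out a trend on GC content and length, and open circles are the other alternatives. Emilin1 and Mfap4 stay below 0 and Efemp1 and Fbn1 above 0 in all of them, and Eln ranges from -0.84 to -0.10.

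Whole aorta holds adventitia, endothelium and attached tissue beside smooth muscle, and in such bulk RNA fewer cells of a type and less RNA per cell cannot be told apart. Of the 8 fibroblast markers 2 passed as higher by DESeq2, Lum and Dpt, and Dpt did not pass by edgeR (adjusted p-value 0.0556). Over all genes tested 5.71% passed as higher by DESeq2, the share to set beside each count of passing markers here. Clec3b was the only one lower in value (log2 fold change -0.48, DESeq2 adjusted p-value 0.24). Summed normalised counts of the 8 were 68523 in KO-1 and 61789 in KO-2 against 48525 to 54923 in WT. Dcn, a broad fibroblast gene, did not pass (log2 fold change 0.38, DESeq2 adjusted p-value 0.0679). The order of the sums, KO-1 above KO-2 above WT, was also that of Fbn1 and of the endothelial and cardiac sums. All 6 mesothelial markers passed as higher, with sums of 899.2 in KO-1 and 2460 in KO-2 against 228.1 to 451.4 in WT, and Msln had a log2 fold change of 1.91. Without KO-2 only Msln of these 6 passed, and by edgeR 3 of 6 did. Here KO-2 was above KO-1, as it was for Efemp1 and for the smooth muscle, macrophage, red blood cell and adipocyte sums. With 2 KO libraries, a shared order singles out no cell type. Endothelial markers (3 of 6 passed as higher; sums 29692 and 28711 against 10549 to 20363 in WT), macrophage markers (5 of 6, 3 without KO-2; 11804 and 12829 against 6592 to 8244) and red blood cell markers (4 of 4 tested, 1 of them without KO-2; 11076 and 61684 against 859.3 to 5990) were also above WT in both KO libraries. Pecam1 (0.48 on the log2 scale) did not pass and Cd68 (1.21) rose, with DESeq2 adjusted p-values of 0.245 and 0.00914. The Cd68 call rested on KO-2 (665.0 normalised counts, against 248.9 in KO-1 and 190.0 to 203.9 in WT): without it the value was 0.34 and did not pass (adjusted p-value 0.546), nor did Cd68 pass by edgeR (0.0776). Ucp1 had 40.2 normalised counts in KO-1 and 6861 in KO-2, and Myh6 had 10313 and 113.1; neither these (DESeq2 adjusted p-values 0.137 and 0.066) nor Adipoq (0.057) passed. Of their lists, 2 of 4 brown adipocyte, 3 of 6 cardiac and 1 of 5 white adipocyte markers passed as higher. Without KO-2 the log2 fold change went from 2.24 to 0.31 for Cidea, from 2.90 to 0.63 for Plin1 and from 3.54 to 2.50 for Cox7a1. Without KO-1 it went from 3.66 to 0.19 for Myl7, from 2.56 to 1.04 for Tnni3 and from 2.41 to 1.71 for Tnnt2. White adipocyte markers summed to 1119 in KO-1 and 8576 in KO-2 against 578.5 to 1397 in WT. No marker of these lists was at 0 in all libraries. The part of these cells in the changes of Fbn1, Efemp1, Mfap4 and Emilin1 was not tested.

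Beyond the 10 members, 37 genes were read from the same fit, listed for roles in elastic fibres or as relatives of the members. Of 35 tested, 7 passed as higher and 6 as lower (37.1%, against 10.4% of all genes tested). The median log2 fold change was 0.00, so changes ran in both directions here too. Of the genes that passed, 4 higher and 1 lower also exceeded a 2-fold change, against 3.54% and 2.1% of all genes tested. The lists were chosen with earlier results of these data known, so these shares do not test the lists as a group.

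Latent TGF-β binding proteins, of which most, though not LTBP-2, hold latent TGF-β in the matrix and LTBP-4 also guides fibulin-5 to microfibrils, were all lower in value. In all 4 genes both KO libraries were below every WT library (16.4% of all genes tested), and 2 passed as lower (4.69% of all genes tested). Ltbp3 had 13578 to 15803 normalised counts in WT, 7383 in KO-1 and 7620 in KO-2 (log2 fold change -0.97, DESeq2 adjusted p-value 2.43e-08). Ltbp1 fell by 0.47 on the log2 scale (DESeq2 adjusted p-value 0.0123), and stayed between -0.49 and -0.41 in the alternatives, though it did not pass with total counts as scaling (adjusted p-value 0.0664), with edgeR without a filter or with the replicate block. Ltbp4 (-0.41, DESeq2 adjusted p-value 0.12) and Ltbp2 (-0.34, 0.283) did not pass. With the GC content and length trend taken out, Ltbp4 was at -0.08 and Ltbp2 at -0.11, while Ltbp3 was at -0.75 and Ltbp1 at -0.41. Leaving out KO-2 gave -0.19 for Ltbp4 and -0.13 for Ltbp2, and leaving out KO-1 gave -0.66 and -0.56.

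Among ADAMTS and ADAMTS-like genes, whose products bind microfibrils, 1 gene rose and 2 fell. Adamtsl2 had 514.3 to 772.2 normalised counts in WT, 3805 in KO-1 and 2367 in KO-2, a difference of 2.20 on the log2 scale (DESeq2 adjusted p-value 1.25e-16) and the only change of these 37 genes to pass a test against a 2-fold change. Adamts10 fell by 1.24 on the log2 scale (DESeq2 adjusted p-value 6.02e-08) and Adamtsl5 by 0.94 (9e-06). Each passed in every alternative apart from the test against a 2-fold change, which Adamts10 and Adamtsl5 did not pass.

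In the lysyl oxidase family, whose enzymes cross-link elastin and collagen, Lox rose (0.50, DESeq2 adjusted p-value 0.0262) and Loxl3 fell (-0.53, 0.0188). Neither passed under edgeR (adjusted p-values 0.0642 and 0.0501), and in all the call on Lox ended in 8 of the 14 alternatives that test against no change, leaving out KO-1 among them, and that on Loxl3 in 6, leaving out KO-2 among them. Loxl1, the family member known to be needed for elastin renewal, did not pass (-0.22, DESeq2 adjusted p-value 0.456). The chaperone Fkbp10 fell (-0.56, DESeq2 adjusted p-value 0.00571), though it did not pass with the GC content and length trend taken out, under edgeR without a filter or with the replicate block.

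Other fibulins and relatives that passed were higher. Fbln2, the long fibulin of basement membranes and elastic laminae, had 2645 to 3666 normalised counts in WT, 6421 in KO-1 and 4838 in KO-2 (log2 fold change 0.91, DESeq2 adjusted p-value 0.000281). Fbln1 did not pass (0.40, DESeq2 adjusted p-value 0.229). Hemicentin Hmcn1 rose by 2.46 from low counts (7.31 to 19.8 in WT) and did not pass without KO-2 or with the replicate block. The multimerins Mmrn1 (3.03) and Mmrn2 (0.57), EMILIN relatives made by endothelium and, for Mmrn1, platelets, also passed as higher; the call on Mmrn1 ended without KO-2 and that on Mmrn2 in 8 alternatives, edgeR among them. Of the proteases that can cut elastin, Ctss, a cathepsin of macrophages, rose by 1.34 on the log2 scale (DESeq2 adjusted p-value 9e-06), the other 6 tested did not pass, and Mmp7 and Elane had 0 counts in all libraries.

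**Figure D5:**
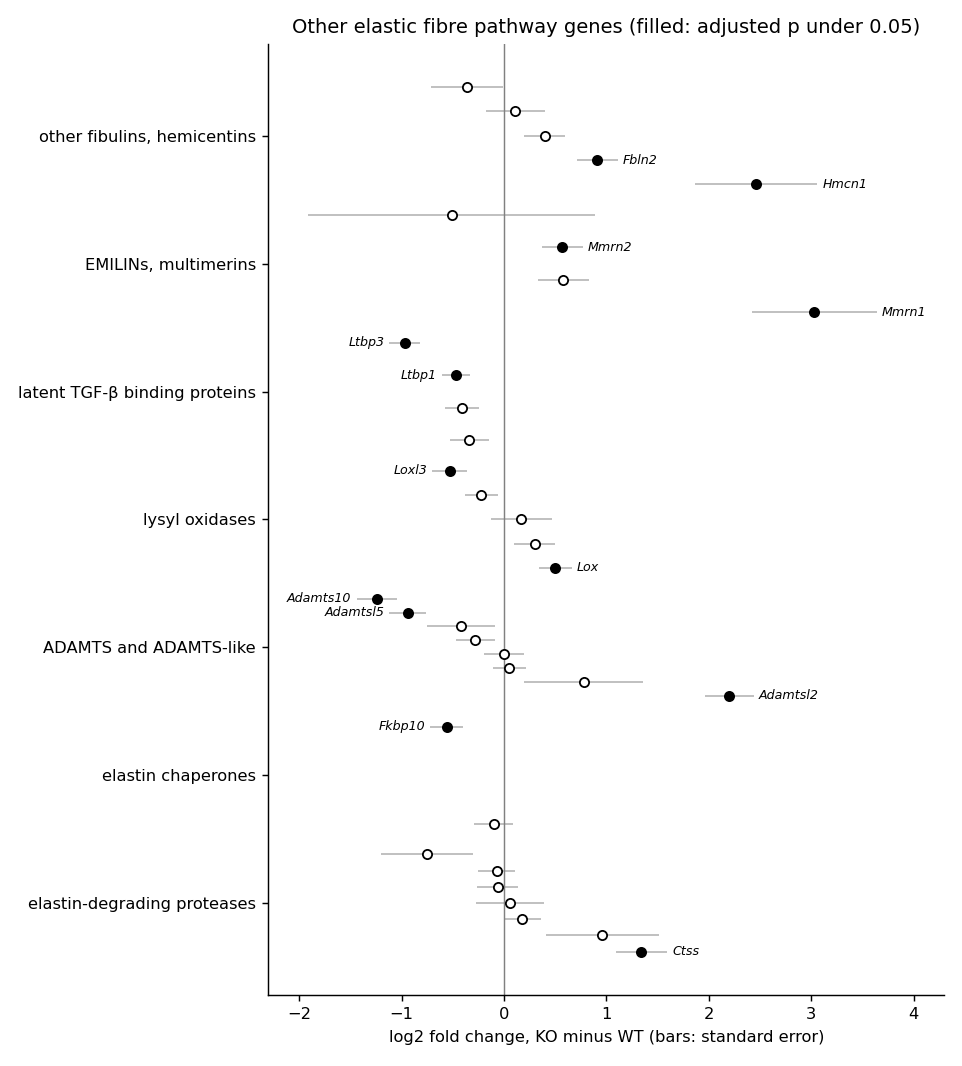
Log2 fold changes (KO minus WT) with standard errors of 35 other genes of the elastic fibre pathway lists, grouped by role or family. Filled points passed the DESeq2 adjusted p-value of 0.05 and are named. Passing genes lie on both sides of 0, with Mmrn1 and Hmcn1 the farthest right and Adamts10 the farthest left.

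The genes whose pattern over the 6 libraries was most like that of Mfap4 or Efemp1 were listed as a description, among 4552 or 4553 other genes averaging 1000 or more normalised counts. For Mfap4 these were S100a4, Npnt and Fstl3, with Pearson correlations of 0.993, 0.992 and 0.991 and log2 fold changes of -0.82, -0.86 and -1.08. For Efemp1 they were Ahcyl1 (0.992), Ctr9 (0.992) and Hspa9 (0.988), with smaller log2 fold changes of 0.45, 0.54 and 0.75. The points of each correlation fall into the WT and KO groups and share library depth and composition.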

How the data were processed

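Per the study's methods and the submitters' processing notes, the authors trimmed reads with Trim Galore, mapped them to GRCm38 (mm10) with HISAT2 and quantified genes with StringTie on GENCODE M15 models. What was deposited is a table of estimated counts, whole numbers not scaled for depth; how coverage was turned into counts, and whether strand was used, is not given in the sources used here. Columns carry codes, and their match to WT and KO was inferred from the codes and the number of each. Where nothing names separate litters or batches, p-values measure the spread between these libraries only.

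Gene positions, exon lengths and GC content came from GENCODE M21 (GRCm38), which matched 52489 of 52636 gene identifiers; 27151 genes had 0 counts throughout. DESeq2 1.42.0 (R 4.3.3) compared KO with WT over all genes (Wald test, group as the only term). Counts were normalised by DESeq2 size factors; single-library log2 changes used a pseudocount of 0.5. The 95% intervals are the estimate with its standard error under a normal approximation. The 15 alternatives included edgeR 4.0.16 (quasi-likelihood test), other scalings, a GC content and length trend, a replicate block and leaving out each library. The script was tested on simulated data. Ratios were tested with exact permutation tests (scipy 1.17.1). Promoter windows came from RefSeq.

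All members were named, with every passing pathway gene, Lox, Loxl1, Ltbp4, Fbln1, Fbln2, a few preset markers and the 3 genes most like Eln, Mfap4 and Efemp1; those for Eln are not reported here. Members and lists were chosen with earlier results of these data known.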

Additional observations from a re-analysis of the deposited data

Results flagged for a closer look

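In WT-4 the log2 ratio of Mfap5 to Mfap2 counts stood at 4.63, while the other 3 WT values lay between 3.69 and 3.82, a gap equal to 0.862 of the whole WT range. WT-4 also had the highest Mfap5 value of the WT libraries (7389 normalised counts) and the highest fibroblast marker sum (54923, against 48525 to 50691), whose part in the ratio was not tested. The check covered 15 results, for which chance gives 0.75 such cases, and 1 was found.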

How the results depend on the processing

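Mfap4, Emilin1 and Efemp1 passed in each alternative but the test against a 2-fold change, where 0 members passed, 0 were called past 2-fold and 1 pathway gene passed. The number of members that passed ran from 3 to 5 when 1 library was left out, with Eln and Fbn1 added without KO-2, and the number past 2-fold from 0 (without KO-2) to 2 (without KO-1). With the replicate block 2 members were past 2-fold (Efemp1 and Emilin1) and 7 pathway genes passed. edgeR without a filter passed 8 pathway genes in place of 13, and leaving out 1 library gave 9 (without KO-2) to 15 (without KO-1). Same-numbered libraries share only a number (correlations of their deviations -0.073 and 0.021), so the block is no pairing. Leaving out 1 library, ratio differences ran from 0.73 to 1.88 for Efemp1 to Efemp2, from -0.11 to 0.96 for Fbln5 to Eln and from -1.01 to 0.18 for Emilin1 to Eln, the ends of each reached by leaving out KO-1 or KO-2. With 1 KO library left, its spread is assumed to be that of WT. Depth prevented a test of Fbn2.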
